A study of Drosophila melanogaster with 4 samples.

Results

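The transcripts described here are those whose level differed at least 2-fold between the 2 pools of wild-type Drosophila melanogaster embryos, while the mean levels of the grhIM and wild-type embryos lay less than 4-fold apart. Of 14755 transcripts that the arrays name by a FlyBase transcript accession, 12505 were well above background on all 4 arrays. Of these 12505 transcripts, 116 were at least 1 apart on the log2 scale between the wild-type pools, and 97 of the 116 met the limit on the genotype means as well. These 97 transcripts were chosen on the wild-type values and on the genotype means, so that those values are given as a description without a test. The difference between the 2 grhIM pools was not used to choose them. The comparison asks whether the pools of the mutant differed in the same transcripts.

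Each array held RNA of 1 pool of about 500 whole embryos, collected at late stage 16 and early stage 17 and raised at 25°C. The grhIM embryos were homozygous for the chromosome cn, grhIM, bw, sp, whose grh allele carries a stop codon early in the part encoding the DNA-binding domain, and they were picked by the lack of a fluorescent balancer chromosome. The wild-type embryos carried y as well as cn, bw and sp. There were 2 pools per genotype, both genotypes were staged by the autofluorescent gut, and all 4 arrays lay on 1 slide. The labels do not say that pools of equal number were collected or handled together. Each pool was measured on 1 array, so that a difference between pools cannot be told apart from a difference between arrays, and a pool of whole embryos cannot separate fewer cells of a type from less RNA per cell.

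Grainy head is a transcription factor of the CP2 superfamily that is needed for the epidermal barrier and the cuticle of the fly. At these stages the embryo deposits its cuticle, its gut and tracheae mature, and many genes are switched on or off within a short time. A pool is a mixture of female and male embryos over a span of ages, and embryos are staged by eye from their morphology.

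The accessions of the 97 transcripts are not paired with gene names in the files, and none of the 97 could be named through the RefSeq gene table of the fly, which names 34 of the 14755 transcripts. The 97 transcripts are therefore described by accession, level and difference, and no pathway, tissue or function is assigned to them. Lists of cuticle, tanning, muscle, stress and tissue marker genes could not be counted among them, and the labelled tissue could not be checked against its markers. Among all accession types, 5 cytosolic ribosomal protein genes could be named and were well above background. None of the 5 met the same criteria, which 0.983% of the targets of all accession types met, so that nothing is read from this count. The lncRNAs roX1 and roX2, which act in dosage compensation and are abundant in males, were measured as 4 accessions, and replicate 1 minus replicate 2 lay between -0.01 and 0.13 in grhIM and between -0.02 and 0.10 in wild-type embryos on the log2 scale. The 2 pools of neither genotype thus lay more than 0.13 apart in these male RNAs.

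At least 75.9% of probes were well above background on each array, the 153 negative control spots had median raw signals between 53 and 57.5, and no gene spot was saturated. Levels are log2 processed signals minus the median of the array over the gene probes, and a positive pool difference means that replicate 1 was the higher. The spike-in RNAs, which are added in a set amount at labelling, differed by 0.078 between the grhIM arrays and by 0.31 between the wild-type arrays on this scale, with single spike-in classes ranging from -0.12 to 0.18 in grhIM and from -0.33 to 0.81 in wild-type. The wild-type pair therefore stood further apart in its spike-ins as well. Their part in the pool differences was not tested beyond a scaling to the spike-ins, whose values are given with the other settings.

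Between the wild-type pools, 59 of the 97 transcripts were higher in replicate 1 and 38 were higher in replicate 2. This balance turned with scaling to the spike-ins, under which 23 of 206 transcripts (11.2%) were higher in replicate 1 and 60 of the 97 were kept. Over all 12505 transcripts, 0.928% lay at least 1 apart, with 0.6% higher in replicate 1 and 0.328% higher in replicate 2. The 97 transcripts differed by a median of 1.25 in size (2.38-fold), against 0.18 over all transcripts. The 59 transcripts ran from 1.00 to 2.70, with a median of 1.25. The 38 transcripts ran from -3.70 to -1.01, with a median of -1.22. At the edge of the selection the nearest transcript inside had a wild-type difference of 1.001 and the nearest outside 0.9999, and the nearest genotype differences were -1.99 inside and -2.04 outside.

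**Figure D1:**
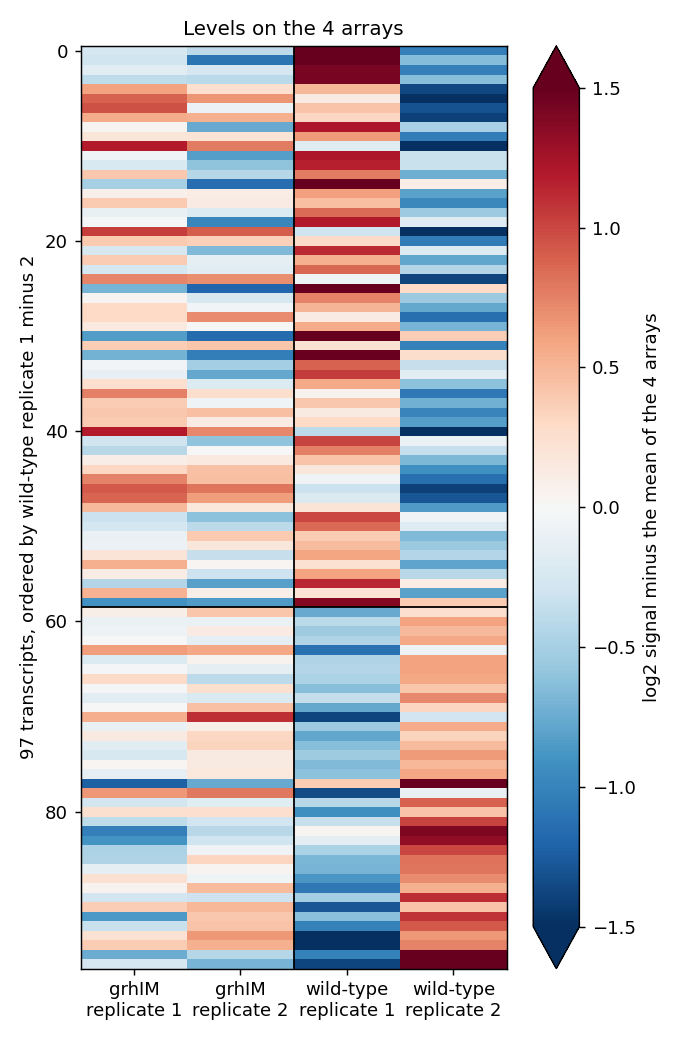
Levels of the 97 transcripts on the 4 arrays, as log2 signal minus the mean of the 4 arrays for each transcript. Transcripts run down the page by wild-type replicate 1 minus replicate 2, columns are the arrays, and the horizontal line parts the 59 transcripts higher in wild-type replicate 1 from the 38 higher in replicate 2. The strong colours lie mostly in the wild-type columns, as the choice of transcripts on the wild-type values requires.

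The grhIM pools, whose difference did not enter the choice, lay further apart in these transcripts than over all transcripts. The median size of grhIM replicate 1 minus replicate 2 was 0.30 (1.23-fold) over the 97 transcripts, with quartiles of 0.12 and 0.46, against 0.088 (1.06-fold) over all 12505 transcripts. In none of the 97 transcripts was the grhIM difference larger than the wild-type difference. It was larger in 28.9% of all transcripts, and a wild-type difference of at least 1 was required of the 97, so that nothing is read from this. The grhIM pools lay at least 1 apart in 2 of the 97 transcripts (2.06%), where 0.416% of all transcripts did. They lay at least 0.5 apart in 18 of the 97 (18.6%), where 2.33% of all transcripts did. Dim transcripts had wider pool differences. Over 3654 transcripts in the lower part of the level range of the 97 (-3.25 to 1.18), the median size in grhIM was 0.12. Of these 3654, 0.79% lay at least 1 apart and 4.54% at least 0.5 apart in grhIM.

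The direction of the difference was often shared between the genotypes when pools of equal number were set side by side. In 76 of the 97 transcripts (78.4%) the grhIM replicate that was higher had the same number as the higher wild-type replicate, and 60.5% of all transcripts showed this. The share was 47 of 59 for the transcripts higher in wild-type replicate 1 and 29 of 38 for those higher in wild-type replicate 2. Of the 18 transcripts with grhIM pools at least 0.5 apart, 17 had the shared direction and 1 had the opposite. Over all transcripts, 291 had grhIM pools at least 0.5 apart, of which 209 had the shared direction and 82 the opposite. Turned to the sign of the wild-type difference, the grhIM difference had a median of 0.27 over the 97 transcripts and 0.03 over all transcripts. The numbers are not stated to link a grhIM pool with a wild-type pool, and the crossed numbering turns each of these signs.

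**Figure D2:**
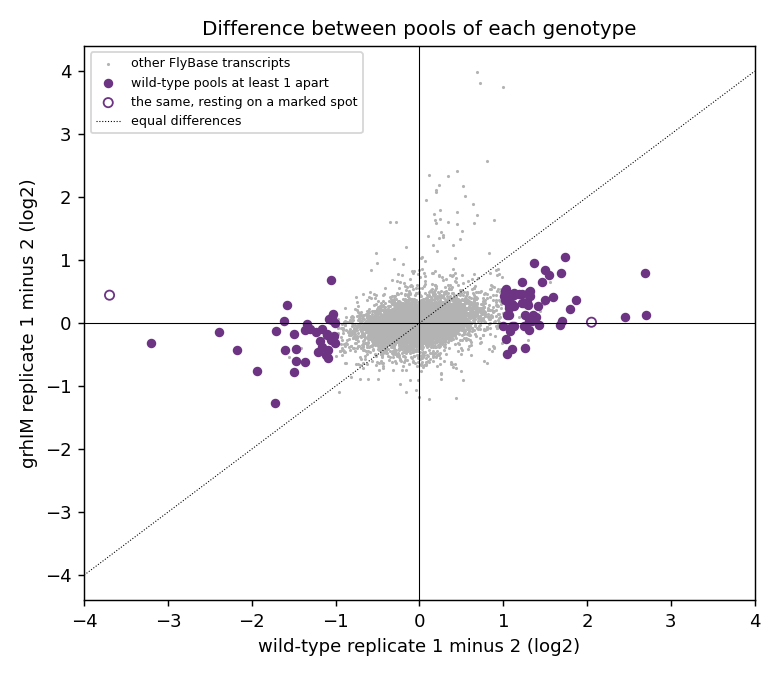
Replicate 1 minus replicate 2 in grhIM embryos (vertical axis, log2) against the same in wild-type embryos (horizontal axis, log2) for 12505 FlyBase transcripts. The 97 transcripts are purple, open where they rest on a marked spot, and the dotted line marks equal differences. The axis ends at 4, so that 4 transcripts beyond it, all outside the 97, are not drawn. The purple points lie at least 1 from 0 on the horizontal axis by choice, and 76 of the 97 have the same sign on both axes.

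Over the 97 transcripts the differences of the 2 genotypes correlated with Pearson's r = 0.58 and Spearman's rho = 0.59, against 0.29 and 0.32 over all transcripts. The selection leaves a gap between -1 and 1 on the wild-type axis, so that this value mostly compares 2 separate clouds of points. Within the 59 transcripts higher in wild-type replicate 1 Pearson's r was 0.18, and within the 38 higher in replicate 2 it was -0.03. These are correlations across transcripts, which share their arrays and are not independent replicates, and no p-value was computed. Without the 2 transcripts that rest on a marked spot, 1 in each direction, r was 0.21 over 58 and 0.24 over 37 transcripts.

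The shared direction was also counted below the threshold, over the 12193 transcripts that met the same limit on the genotype means, which leaves out 312. With their wild-type differences sorted by size, the share of transcripts with a shared direction was 55.9% of 7837 below 0.25, 66.6% of 3332 between 0.25 and 0.5, 73.6% of 723 between 0.5 and 0.75, and 80.4% of 204 between 0.75 and 1. Among the 97 it was 77.3% of the 75 transcripts below 1.5 and 81.8% of the 22 at or above 1.5. The median grhIM difference in the wild-type direction was 0.02, 0.05, 0.11, 0.17, 0.27 and 0.27 in the same order. The 204 transcripts just below the threshold thus had about the same share as the 97 above it.

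**Figure D3:**
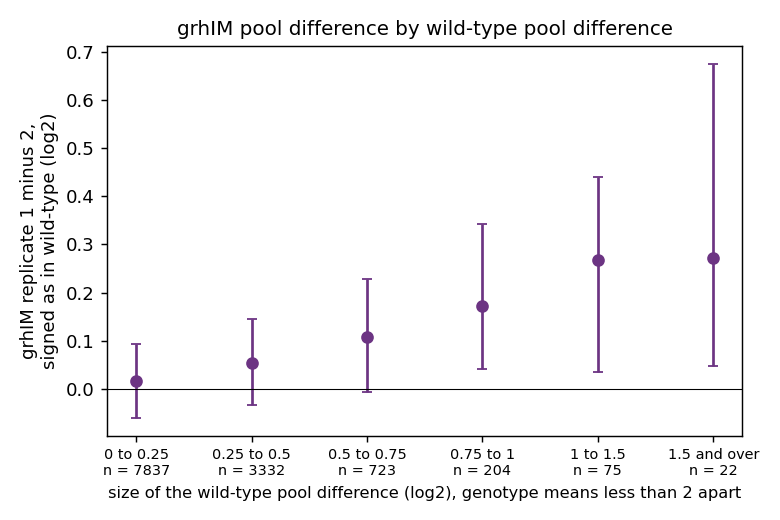
grhIM replicate 1 minus replicate 2, signed as the wild-type difference of the same transcript (vertical axis, log2), by the size of the wild-type difference (horizontal axis, log2), over the 12193 transcripts whose genotype means lay less than 2 apart. Points are medians and bars run between the quartiles, with the number of transcripts under each bin. The median is 0.02 in the lowest bin and 0.27 in both bins of the 97 transcripts.

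The 2 transcripts with the largest difference in favour of wild-type replicate 1 were FBtr0076918 and FBtr0301159. FBtr0076918 had levels of 4.31 and 4.17 in grhIM replicates 1 and 2, against 6.24 and 3.54 in wild-type replicates 1 and 2. Its wild-type pools lay 2.70 apart (6.52-fold), and the grhIM pools 0.14 apart. Wild-type replicate 1 alone was high, and this transcript was read from 1 spot per array. FBtr0301159 had levels of -3.50 and -4.30 in grhIM, against -1.17 and -3.85 in wild-type. It was among the dimmest of the 97, with a level of -3.21 on average, and its wild-type difference of 2.69 was 1.34 in the table of normalised values.

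The 2 transcripts with the largest difference in favour of wild-type replicate 2 were FBtr0071560 and FBtr0091660. FBtr0071560 had levels of 4.67 and 4.22 in grhIM, against 3.54 and 7.24 in wild-type. Its 2 spots on the array of wild-type replicate 2 had processed signals of 118983 and 2744, and the brighter spot carried the scanner's mark for a non-uniform spot. Without that spot its wild-type difference was 0.78, in the other direction. FBtr0091660 had levels of 0.01 and 0.32 in grhIM, against -0.26 and 2.94 in wild-type. Both of its spots were bright on wild-type replicate 2 alone, with processed signals of 3178 and 3020 there, and neither carried a mark. The wild-type pools lay 9.22-fold apart in this transcript, and the grhIM pools 1.24-fold.

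The transcripts in which the grhIM pools lay furthest apart had the higher level in the replicate of the same number in both genotypes. FBtr0076222 had levels of 1.63 and 2.90 in grhIM, against 1.86 and 3.58 in wild-type, so that replicate 2 was higher by 1.27 in grhIM and by 1.72 in wild-type. A second probe of this transcript gave grhIM and wild-type differences of -1.28 and -1.76. FBtr0087455 had levels of 3.72 and 2.68 in grhIM, against 3.19 and 1.45 in wild-type, with replicate 1 higher by 1.04 in grhIM and by 1.73 in wild-type. These were the 2 of the 97 transcripts with grhIM pools at least 1 apart. They also made up the overlap between the 52 transcripts at least 1 apart in grhIM and the 116 at least 1 apart in wild-type. This overlap is 3.85% of the 52, where 0.928% of all transcripts lay at least 1 apart in wild-type. It is 1.72% of the 116, where 0.416% of all transcripts lay at least 1 apart in grhIM.

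FBtr0084853 had the second largest grhIM difference among the 97 with grhIM replicate 1 higher, and FBtr0082225 the second largest with grhIM replicate 2 higher. FBtr0084853 had levels of -0.77 and -1.72 in grhIM, against 0.45 and -0.91 in wild-type. FBtr0082225 had levels of 2.34 and 3.12 in grhIM, against 2.11 and 3.61 in wild-type. In both, the spots of the 2 pools of each genotype did not overlap, and each genotype had the higher level in the replicate of the same number.

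**Figure D4:**
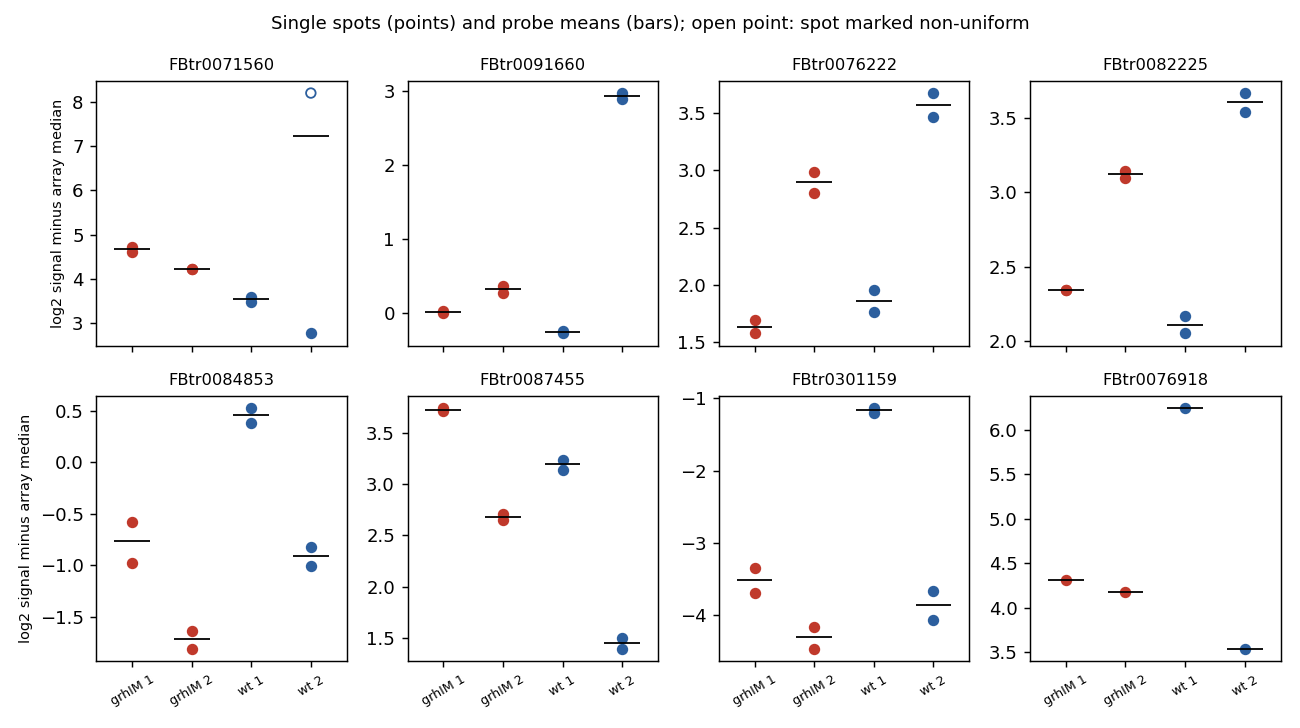
Levels of the 8 transcripts named by accession on the 4 arrays (log2 signal minus the array median). Points are single spots in grhIM (red) and wild-type (blue), open where the scanner marked the spot, and bars are the probe means that were analysed. In FBtr0071560 the 2 spots of wild-type replicate 2 lie far apart. In the other transcripts with several spots per array they lie closer together, with the widest gap in FBtr0301159, at -3.67 and -4.07.

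The position of the grhIM levels relative to the wild-type pools is part of how these transcripts were chosen. Both grhIM arrays lay between the wild-type arrays in 44 of the 97 transcripts, where 14.6% of all transcripts did. This was seen in 19 of the 59 transcripts higher in wild-type replicate 1 and in 25 of the 38 higher in replicate 2. The mean of grhIM minus the mean of wild-type had a median of 0.04 and a median size of 0.60, with 50 transcripts above 0 and 47 below. It was at least 1 in size in 26 of the 97, and 8.77% of all transcripts reached that size. In 79 of the 97 the genotype difference was smaller than the difference between the wild-type pools, and this held for 41.0% of all transcripts. The mean of grhIM was nearer to wild-type replicate 1 in 52 transcripts (53.6%) and nearer to wild-type replicate 2 in 45, and 56.5% of all transcripts were nearer to replicate 1, so that the 97 lay near the background here.

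In 41 of the 97 transcripts a single array stood apart, the other 3 lying within 0.5 of each other. This array was wild-type replicate 1 in 18 transcripts, 8 of them high and 10 low, and wild-type replicate 2 in 23, 9 of them high and 14 low. A grhIM array stood apart in this sense in 0 of the 97. The choice on the wild-type difference leads to this, since a transcript with a deviating grhIM array alone does not enter. Single arrays standing apart were not counted over all transcripts, so that nothing is read from the 41.

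None of the 97 transcripts was called between the genotypes by limma over all 12505 transcripts at an adjusted p under 0.01, and 9.08% of all transcripts were called. At an unadjusted p under 0.05, 20 of the 97 passed, and 36.4% of all transcripts did. The wide spread of the wild-type pools that chose these transcripts also enters that test, so that nothing is read from the count. Without wild-type replicate 1 the count was 28 of the 97, where 11.2% of all transcripts were called, and without wild-type replicate 2 it was 23, where 9.56% were called, with the lone wild-type array assumed to vary like the grhIM arrays.

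The 97 transcripts were weaker in signal than the rest. Their median level was 1.18, against 2.60 over all transcripts, and the median of the lowest raw signal over the 4 arrays was 563, against 1898. With all transcripts parted into 3 groups of about equal size by level, 50 of the 97 lay in the lowest group, 25 in the middle and 22 in the highest. The shared direction was seen in 40 of the 50, 20 of the 25 and 16 of the 22, and over all transcripts of the same groups in 58.9%, 60.2% and 62.5%. The shared direction was therefore not limited to dim transcripts. The median size of the grhIM difference was 0.32, 0.33 and 0.22 over the 97 in these groups, lowest first. Over all transcripts of the same groups it was 0.12, 0.076 and 0.074.

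Repeated spots gave the error of the array within a transcript. Of the 97 transcripts, 56 had more than 1 spot per array, and their spots on the wild-type arrays had a median SD of 0.074 on the log2 scale. In 44 of the 56 (78.6%) the spots of the 2 grhIM arrays did not overlap, and 53.7% of all transcripts with several spots showed this. In 54 of the 56 (96.4%) the spots of the 2 wild-type arrays did not overlap, against 73.6% of all such transcripts, a difference that the choice of transcripts favours. In most of these transcripts the spots of the 2 arrays of a genotype thus did not overlap. With few spots per array, spots can also fail to overlap without a pool difference. The spread between spots of one array does not include the error of labelling or hybridisation.

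Some transcripts were read by more than 1 probe. Another probe reads the same wild-type contrast in the same RNA and on the same arrays, so that its values are a description as well. Of the 97 transcripts, 29 had more than 1 probe, and 27 other probes of 23 transcripts were well above background on all 4 arrays. In 22 of the 27 the wild-type difference had the direction of the brightest probe (81.5%), against 69.6% over all such probes, and in 15 of the 27 it was at least 1 in that direction. The median ratio of the other probe's difference to that of the brightest probe was 0.80. In 7 of the 27 the other probe's difference was below 25% of that of the brightest probe, or opposite in sign. Some of these probes read the same transcript. A transcript at -2.39 by its brightest probe had -0.08 and -0.45 by its others, and one at -1.71 had 0.16 and 0.10. Counted by transcript, all other probes had the direction of the brightest probe in 20 of the 23, and in 2386 of 3557 over all such transcripts. In 23 of the 27 other probes the grhIM difference had the direction of the transcript's wild-type difference, and 55.5% of all such probes showed this.

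**Figure D5:**
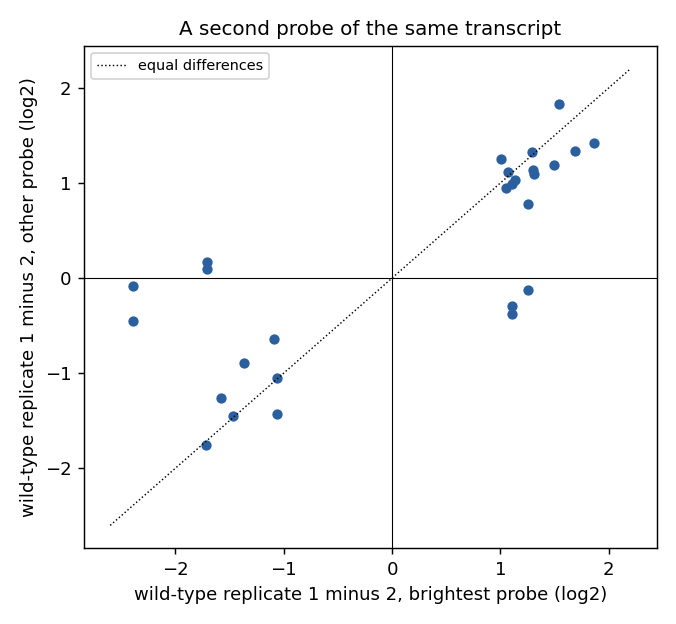
Wild-type replicate 1 minus replicate 2 (log2) read by each of the 27 other probes of 23 transcripts (vertical axis) against the same read by the brightest probe (horizontal axis). The dotted line marks equal differences. Of the 27 points, 22 have the same sign on both axes, and 7 lie near or across 0 on the vertical axis.

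Marked spots decided the place of 2 transcripts among the 97. One was FBtr0071560, described above. The other, FBtr0077884, is named because its spot stood out once its values were seen. It had levels of 4.83 and 4.82 in grhIM, against 6.64 and 4.58 in wild-type, and its wild-type difference of 2.05 was -0.40 without a marked spot on wild-type replicate 1. Over the 95 other transcripts the grhIM pools had a median difference of 0.30 in size, the direction was shared in 75 (78.9%), and Pearson's r was 0.64. Marked spots also produced the 4 largest wild-type differences of all, from 4.92 to 8.58. They came from 4 spots in adjacent rows and columns of the array of wild-type replicate 1, with processed signals from 102411 to 178870, and the limit on the genotype means kept these 4 transcripts out of the 97. The limit left out 19 transcripts in all, 16 of them higher in wild-type replicate 1.

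The table of normalised values from the study held all 97 transcripts, and the wild-type difference had the same sign there in each. Of the 97, 59 were at least 1 apart in that table, with a median of 1.07 in size. The median size of the grhIM difference there was 0.26, against 0.086 over all transcripts. The direction was shared by the grhIM pools in 74 of the 97, and in 7451 of all 12472 transcripts held there. After cyclic loess over the 4 arrays, 88 of the 97 were at least 1 apart, and the median sizes were 0.32 in grhIM and 1.30 in wild-type. The direction was then shared in 75 of the 97 (77.3%), and in 61.6% of all transcripts.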

How the data were processed

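RNA from 2 grhIM and 2 wild-type pools was labelled with Cy3 and hybridised to 1-colour Agilent arrays. The deposited scanner files hold intensity values per spot, made by the authors with Feature Extraction 10.7.3.1 per the file headers: a processed intensity, background-subtracted within the array, and raw medians of the spot and its local background. The deposited flags, another kind of unit, mark spots as well above background, saturated, non-uniform or outlying, and the deposited spot positions are row and column numbers. A deposited table holds intensity values that the authors normalised over all samples by multiple loess. The filter behind its list of probes is not known here.

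Spots of a probe were averaged (43603 gene spots, 32162 probes), log2 was taken, and the array's median over gene probes was subtracted. The brightest probe stood for a transcript. A transcript was kept where at least 50% of its spots were well above background on all 4 arrays. Control spots were left out, and marked spots were kept. The 97 transcripts, the gene lists and the settings were chosen with earlier results of these data known. Those named by accession were the 2 with the largest wild-type difference and the 2 with the largest grhIM difference in each direction. With 1 array per pool no pool difference was tested, and the precision is limited by the number of arrays. limma 3.58.1 in R 4.3.3 compared the genotypes over 12505 transcripts with Benjamini-Hochberg adjustment. Its p-values set the genotype difference against the spread between arrays of a genotype, drawn toward the spread of all transcripts. With 1 array per pool, that spread includes the error of labelling and array. The code was tested on simulated data. Names came from the RefSeq gene table of the Release 6 assembly. The settings varied were scaling, background, filter, probe, marked spots, thresholds, accession type, and the limma design.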

Additional observations from a re-analysis of the deposited data

How the results depend on the processing

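The 4 arrays, 1 per pool, limit every value, and dim transcripts are the least certain. The number of transcripts was 98 when scaled to the 75th percentile, 100 by cyclic loess or quantile normalisation, and 67 in the table of normalised values. It was 206 with spike-in scaling, 63 with the raw median signal, 280 without a filter on dim probes, 50 with the dimmest array at or above the array median, 22 with wild-type pools 1.5 apart, and 188 over all accession types. The share with grhIM pools at least 1 apart was 10.4% without the filter, where 1.48% of all transcripts reached it. At 1.5 it was 9.09% of the 22, where 0.416% of all transcripts reached it. The median grhIM difference was 0.23 with spike-in scaling and 0.42 without the filter, against 0.099 and 0.10 over all transcripts. Pearson's r was 0.32 without the filter, near the 0.27 over all transcripts there. With no limit on the genotype means it was 0.42, against 0.29 over all transcripts. Of the transcripts chosen under each, 11.2% were higher in wild-type replicate 1 with spike-in scaling, 72.0% with cyclic loess and 44.3% without the filter. This share was 60.8% here. The direction was shared in 87.4%, 80.0% and 66.4% under these settings in the same order, against 71.3%, 61.6% and 61.0% of all transcripts. Under every setting of scaling, background, filter, probe, marked spots, thresholds and accession type, the shared direction was more frequent among the chosen transcripts (66.4% to 87.4%) than among all transcripts (58.0% to 71.3%). limma called 4 of 206 transcripts with spike-in scaling (6.76% of all transcripts), 7 of 116 with no limit on the genotype means (9.08% of all) and 10 of the 97 at an adjusted p under 0.05 (22.7% of all). The cause of these shifts was not tested, except that a wider or narrower choice takes in more or fewer transcripts.

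Leaving out each array in turn gave 0 to 28 limma calls among the 97 (5.97% to 11.2% of all transcripts) and a median genotype difference of 0.0054 to 0.11. Pool differences of equal replicate number correlated at 0.29 over 12505 transcripts, crossed numbers at -0.29, and with 2 pairs no pairing is established. The replicate block raised the limma calls to 27 of the 97, and to 2335 over all transcripts (18.7%) against 1135 without it. Normexp (offset 50) on the median signal was chosen after seeing the data, with the background of outlying local backgrounds set to the array's median. It gave 63 transcripts and a median grhIM difference of 0.25, against 0.084 over all transcripts. Normexp on the mean signal was not run, as the files read here hold median signals. Leaving out an array gives no pool difference for its genotype, so the other results have no such value.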

Other observations

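Of 6624 targets with other accession types that were well above background on all 4 arrays, 91 met the same criteria (1.37%), with 44 higher in wild-type replicate 1 and 47 higher in replicate 2. The direction was shared by the grhIM pools in 61 of the 91 (67.0%) and in 57.6% of the 6624, and the median size of the grhIM difference was 0.26 over the 91 and 0.13 over the 6624. Of the 91, 2 could be named. The lncRNA CR30009 had levels of 1.47 and 1.24 in grhIM, against 0.71 and -0.36 in wild-type. CG41284, a protein-coding gene, had levels of -2.98 and -2.09 in grhIM, against -2.65 and -1.59 in wild-type, so that replicate 2 was higher in both genotypes.

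Of the 52 FlyBase transcripts with grhIM pools at least 1 apart, 45 were higher in grhIM replicate 1, as were 6988 of all 12505. The direction was shared by the wild-type pools in 45 of the 52, where 60.5% of all transcripts shared it. The median size of the wild-type difference was 0.32 over the 52, against 0.18 over all transcripts. The highest grhIM difference among the 52 was 3.99, which exceeds that of the 97 transcripts in the same pools, -1.27 to 1.04.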
